A study of Rattus norvegicus with 10 samples.

Results

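The genes of the insulin, PI3K, mTOR and FoxO pathway were examined in islets of rats on 2 diets. The set was a list of 36 genes chosen by name for their place in the pathway, with earlier results of these data known. Each was read from the brightest probeset, over all 10 arrays, among those that the platform annotation ties to that gene symbol alone. Such a probeset existed for 34 of the 36, out of 14217 genes so covered on the array; Pik3cb and Rps6kb2 were not analysed here. One further member, Irs1, lay under the filter on low values, so 33 were tested. Islets, small groups of endocrine cells in the pancreas, came from adult male Wistar rats aged 7 weeks, which were caged singly and ate for 10 days either a standard chow, with 8% of calories from fat, or a cafeteria diet, a choice of energy-rich foods with 66% of calories from fat. Collagenase digestion, a Histopaque gradient and hand-picking were used to isolate the islets, and each of the 5 arrays per diet carried an independent sample. The labels give no genotype beyond the strain. The title, source name and description of each sample (3 fields) name the diet used here to group the arrays, while the diet characteristic (1 field) names the other diet in all 10 samples; under that field every sign below would turn, with sizes and p-values as they are.

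Insulin and the insulin-like growth factors bind receptor tyrosine kinases, which phosphorylate docking proteins of the Irs family and recruit phosphoinositide 3-kinase (PI3K). Its lipid product brings the kinase Akt to the membrane, where Pdpk1 activates it. Akt then relieves the Tsc1 and Tsc2 brake on the small GTPase Rheb and so switches on the mTOR kinase, which promotes protein synthesis, and it keeps FoxO transcription factors out of the nucleus. In beta cells, the insulin-producing cells of the islet, this pathway is known for its part in growth and survival, with Irs2 and Foxo1 as its best studied nodes.

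None of the pathway's genes passed the test for a difference between the diets. With limma, 0 of the 33 members passed an adjusted p of 0.05 over all 18625 probesets tested, among which the share was 0.0% as well, and 3 members had an unadjusted p under 0.05. These were Foxo3 and the PI3K regulatory subunit gene Pik3r1, both lower in the cafeteria group, and Mtor, which was higher. The 3 members make 9.09% of 33, against 10.4% of all probesets (5.51% higher and 4.91% lower), so their share was near the background. With each array centred on its median, the split of all probesets at that p went from 1026 higher and 915 lower to 580 and 1315. Of the 33, 17 were higher and 16 lower, a share of 51.5% higher beside 51.4% of all probesets. This split rests on the brightest probesets: more members were higher when the probesets of each gene were averaged, as given at the end. The members' median log2 difference was 0.019, against 0.0056 over all probesets. With each array centred on its median it was −0.019, against −0.032 over all probesets. The median size of the difference, without its sign, was 0.116 for the members and 0.115 for all probesets. For 28 of the 33 the 95% interval lay wholly between −0.5 and 0.5 on the log2 scale. The exceptions were Pik3r1, Foxo3, Pik3r3, Inpp5d and Irs2. All log2 differences are cafeteria minus standard on log2(signal + 14.15), which understates the change of dim genes.

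**Figure D1:**
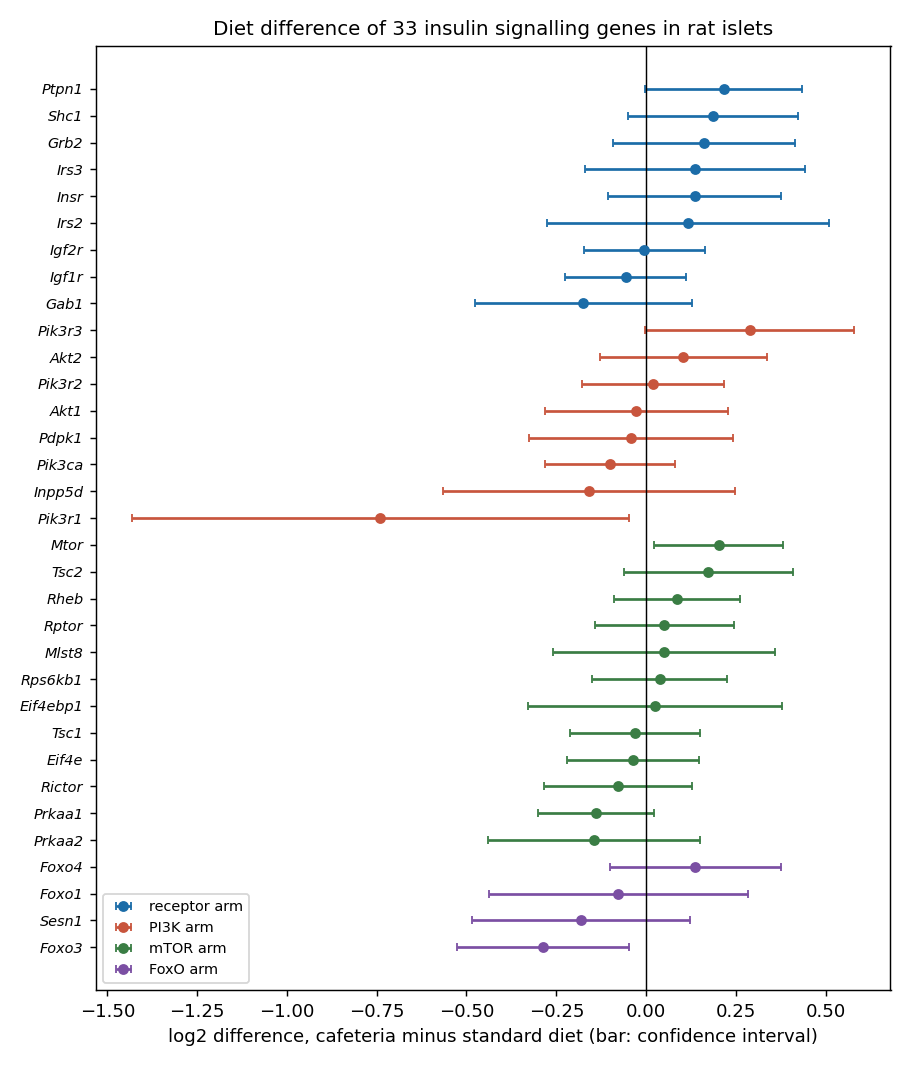
Log2 difference, cafeteria minus standard diet, for the 33 members past the filter (points) with its 95% interval from limma (bars), coloured by arm of the pathway. Each point but that of Pik3r1 sits within 0.3 of 0; the widest interval, −1.43 to −0.048, is that of Pik3r1.

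Islet hormone genes were bright on every array, as the tissue label has it. Median signals ran from 150.9 to 173.2 in arbitrary units of the MAS5 summary, and pairs of arrays correlated at r = 0.958 to 0.973 across probesets. Ins1, a defining beta cell marker, read 18692.7 ± 1993.6 (SD, n = 5) in the standard and 21139.1 ± 4903.8 (SD, n = 5) with the cafeteria diet. Of 7 markers of other islet hormone cells, 5 were higher and 2 lower, beside 51.4% higher of all probesets. An unadjusted p under 0.05 was found for 2 of the 7, beside 10.4% of all probesets. Gcg differed by 0.23 (SE 0.098). Of 13 markers of acinar (digestive enzyme) cells, 4 were higher and 9 lower, and 3 had such a p, beside 10.4% of all probesets. Amy2a3 differed by −1.17 (SE 0.412). The immune list had 24 of its 26 markers on the array, 20 of them past the filter. All 20 had a negative difference, where 51.4% of all probesets had a positive one. An unadjusted p under 0.05 was found for 2 of the 20, beside 10.4% of all probesets. The summed signal of the 24 ran from 8340.1 to 26324.3 in the standard arrays (median 19451) and from 7969.8 to 27065.9 in the cafeteria arrays (median 9184). No marker was at 0, and the dimmest was Cd52 with a mean of 36.2. The GAPDH ratio (3 prime over 5 prime control probesets, log2), which rises as RNA is degraded, ranged from 0.0037 to 0.34 in the standard and from −0.053 to 0.16 in the cafeteria arrays (exact two-sided permutation p = 0.0238). The same ratio for beta-actin ranged from 1.33 to 1.68 in the standard and from 1.16 to 1.59 in the cafeteria arrays. Its group means differed by −0.089 (exact two-sided permutation p = 0.405), those of the GAPDH ratio by −0.20. In whole islets, fewer cells of a type and less RNA per cell cannot be told apart.

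Windows around the annotated start are shown for the members that carry an element of the pathway's own readout. FoxO factors, whose activity insulin controls, are read out through DNA. RefSeq windows of 300 bases, from 250 before to 50 after the annotated start, were matched by symbol for 30 members. The FoxO element GTAAACA, sought on both strands, was present in 3 of the 30 (10.0%), those of Insr, Pik3ca and Tsc1, against 3.78% of 33469 rat promoters. The insulin response element CAAAACA was found in 1, that of Mtor (3.33% against 6.28%). The motifs are in capitals, written on the strand of the gene from 5′ to 3′:
Insr, GRCr8 chr12:6128754-6129053, minus strand: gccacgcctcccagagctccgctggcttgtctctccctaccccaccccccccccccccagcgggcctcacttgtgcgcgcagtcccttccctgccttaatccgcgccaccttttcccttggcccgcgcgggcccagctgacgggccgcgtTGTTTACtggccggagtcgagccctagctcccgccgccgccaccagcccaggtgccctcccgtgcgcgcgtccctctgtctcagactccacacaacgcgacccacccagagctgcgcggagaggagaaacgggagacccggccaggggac
Pik3ca, GRCr8 chr2:117147049-117147348, plus strand: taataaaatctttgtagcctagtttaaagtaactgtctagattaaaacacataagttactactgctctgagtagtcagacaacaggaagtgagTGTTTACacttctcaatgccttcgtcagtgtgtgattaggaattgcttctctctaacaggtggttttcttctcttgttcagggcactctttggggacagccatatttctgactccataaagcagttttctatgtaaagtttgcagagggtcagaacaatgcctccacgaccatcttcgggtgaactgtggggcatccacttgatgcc
Tsc1, GRCr8 chr3:32367447-32367746, plus strand: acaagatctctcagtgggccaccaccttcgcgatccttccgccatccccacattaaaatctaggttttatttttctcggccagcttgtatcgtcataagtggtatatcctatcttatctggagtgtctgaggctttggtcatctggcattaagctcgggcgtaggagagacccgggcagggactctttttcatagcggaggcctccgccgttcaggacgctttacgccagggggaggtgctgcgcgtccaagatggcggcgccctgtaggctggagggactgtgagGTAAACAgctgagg
Mtor, GRCr8 chr5:164167735-164168034, plus strand: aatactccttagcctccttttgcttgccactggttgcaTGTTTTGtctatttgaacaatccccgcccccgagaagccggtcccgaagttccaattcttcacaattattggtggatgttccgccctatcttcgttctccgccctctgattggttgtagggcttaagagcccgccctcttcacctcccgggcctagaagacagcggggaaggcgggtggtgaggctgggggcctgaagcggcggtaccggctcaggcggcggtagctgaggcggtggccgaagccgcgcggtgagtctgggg

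In the Insr and Pik3ca windows the match reads as the reverse complement, TGTTTAC, and begins at position −100 and −157 from the start. The Pik3ca window reads ATG at its annotated start, so that start may be one of translation. Whether this window holds the promoter was not tested. In Tsc1 it reads forward and begins at position 37, within the transcribed part. The Mtor match reads TGTTTTG, the reverse complement, from position −212. The E-box CACGTG, bound by basic helix-loop-helix factors, occurred in 4 windows (Eif4e, Igf1r, Igf2r and Rheb; 13.3% against 6.42%), and the cAMP response element TGACGTCA in 0 of 30 (against 1.83%). The 4 motifs searched do not overlap at these sites. The median share of G and C bases was 66.8% in the member windows and 51.7% in all promoters. The motif shares set side by side are therefore not matched in base composition. A match is a string of letters in a window and no evidence of binding.

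Among receptors and docking proteins, 9 of 10 members were tested; 6 were higher and 3 lower, and 0 had an unadjusted p under 0.05. Insr, which encodes the insulin receptor and holds the FoxO element shown above, read 148.6, 153.5, 151.3, 211.7 and 155.2 in standard replicates 1 to 5. The cafeteria arrays read 167.6, 191.9, 155.7, 199.1 and 189.2. The groups overlapped because standard replicate 4 lay above all other arrays; the other standard arrays lay below every cafeteria array. The log2 difference was 0.14 (SE 0.110), with an interval of −0.11 to 0.38 (limma adjusted p = 0.667).

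Igf1r encodes the receptor for insulin-like growth factor 1, and its signals were 2262.5, 2303.4, 2349.3, 2421.0 and 2600.8 in the standard arrays and 2290.3, 2068.2, 2339.3, 2504.8 and 2284.4 in the cafeteria arrays. The ranges lay almost on top of each other, with a log2 difference of −0.056 (SE 0.077) and an interval of −0.22 to 0.11. Igf2r, which clears insulin-like growth factor 2 and sorts lysosomal enzymes, was closer still, at −0.005 (SE 0.077) with an interval of −0.17 to 0.16. These 2 intervals are among the narrower ones of the set, so a difference of 0.3 lies outside both.

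The docking proteins differed from each other mainly in how well they were measured. Irs1 read 37.0, 50.3, 57.2, 52.7 and 40.9 in the standard and 39.2, 75.6, 37.4, 33.7 and 55.8 in the cafeteria arrays, under the filter, so no test was made. Whether signals this low exceed background cannot be said from the values used. Irs2, which couples both receptors to PI3K in beta cells, read 476.9, 390.1, 483.1, 624.9 and 514.5 in the standard and 480.5, 359.0, 599.5, 578.6 and 728.6 in the cafeteria arrays. It was the most variable of the tested docking proteins: cafeteria replicates 2 and 5 were the lowest and the highest of all 10 arrays. The difference of 0.12 (SE 0.179) has an interval of −0.28 to 0.51, which leaves room for a moderate difference in either direction. No relation was detected between Irs2 and the immediate early genes, the class of transcripts that respond first to a stimulus, over the 10 arrays (Pearson r = 0.035, permutation p = 0.933, adjusted 0.933; Spearman rho = 0.12, permutation p = 0.755, adjusted 0.755; r = 0.25 without standard replicates 3 and 5). The mean log2 signal of these genes ran from 9.01 to 9.69 in the standard but only from 9.06 to 9.13 in the cafeteria arrays. The cafeteria arrays could therefore hardly show a relation. Of the 17 immediate early genes past the filter, 15 had a negative and 2 a positive difference, beside 51.4% positive of all probesets. An unadjusted p under 0.05 was found for 6 of the 17, beside 10.4% of all probesets. The index of the immediate early genes differed by −0.25 (exact two-sided permutation p = 0.0476). The part of this shift in the pathway's values was not tested. Irs3, a rodent docking protein best known from fat cells, differed by 0.14 (SE 0.139). The adipocyte marker Adipoq, under the filter, averaged 58.7 ± 23.8 (SD, n = 5) in the standard and 43.0 ± 43.1 (SD, n = 5) in the cafeteria group. Of 6 adipocyte markers, 1 passed the filter, and the brightest, Fabp4, had a mean of 991.4 over the 10 arrays.

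Adaptor genes were spread around 0 as well. Shc1 and Grb2, which link receptors to the Ras pathway, differed by 0.19 (SE 0.108) and 0.16 (SE 0.116), and Gab1, a docking protein for PI3K, by −0.17 (SE 0.137). Cafeteria replicate 5 was the lowest array for Gab1, at 992.4, and the highest for Shc1, at 1379.3. Ptpn1 encodes the phosphatase that removes phosphate from the insulin receptor, and it was the receptor arm member of lowest p. Its signals were 378.9, 315.3, 401.6, 320.7 and 346.4 in the standard arrays and 367.7, 456.0, 464.8, 392.3 and 379.8 in the cafeteria arrays. All 5 cafeteria arrays lay above the standard median, and the groups overlapped. The log2 difference was 0.22, SE 0.099 (limma adjusted p = 0.480; exact two-sided permutation p = 0.0635), and its second probeset past the filter gave 0.19 (SE 0.165).

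In the PI3K arm, 3 of 8 tested members were higher and 5 lower, and the largest difference of the whole set was that of Pik3r1. This gene encodes the regulatory subunits that hold the PI3K catalytic subunit stable and dock it on Irs proteins. It read 355.0, 284.3, 201.0, 285.0 and 229.5 in the standard arrays and 240.4, 226.6, 203.3, 59.2 and 122.2 in the cafeteria arrays. Every cafeteria array lay below the standard median of 284.3, but the groups overlapped, and replicates 4 and 5 of the cafeteria diet lay far under the other 3. The cafeteria mean was 170.3 ± 77.2 (SD, n = 5) beside 271.0 ± 59.3 (SD, n = 5) on standard chow, a log2 difference of −0.74 (SE 0.315) or a 1.67-fold lower level, with an interval of −1.43 to −0.048. It did not pass over all probesets (limma adjusted p = 0.460), and the exact two-sided permutation p was 0.0556. Without cafeteria replicate 4 the difference was −0.44 (SE 0.208). Its probeset is of the type shared by transcripts of the gene, so the isoforms cannot be told apart.

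The other regulatory subunit genes did not show the same sign. Pik3r3 read 303.3, 501.9, 422.5, 382.3 and 339.9 in the standard and 435.5, 505.6, 482.1, 539.0 and 411.9 in the cafeteria arrays. All 5 cafeteria arrays exceeded the standard median, although standard replicates 2 and 3 lay among them. Its difference was 0.29 (SE 0.132) with an interval of −0.002 to 0.58 (limma adjusted p = 0.480), and −0.018 once that ratio of GAPDH probesets entered as a covariate. Pik3r2, another regulatory subunit gene, differed by 0.019 (SE 0.090) from its brightest probeset. The catalytic subunit gene Pik3ca, whose sequence window is shown above, differed by −0.10 (SE 0.083), with all 5 cafeteria arrays below the standard median of 1517.6.

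**Figure D2:**
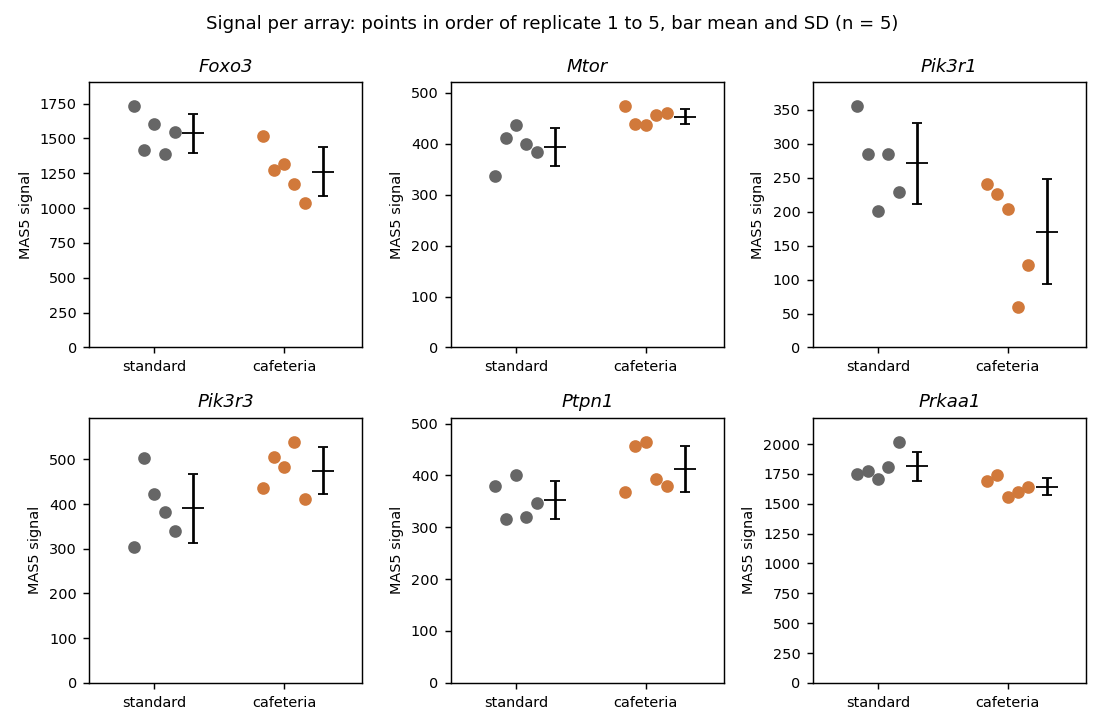
MAS5 signal per array (arbitrary units, axis from 0) of the 6 members with the lowest p, in the order Foxo3, Mtor, Pik3r1, Pik3r3, Ptpn1 and Prkaa1; points are the 5 arrays of a diet and the bar beside them is the mean with the SD. Of these, Mtor alone has groups that do not overlap, and the lowest Pik3r1 points are the cafeteria arrays at 59.2 and 122.2.

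Differences of the downstream kinases were near 0 in their brightest probesets. Pdpk1, which phosphorylates Akt, differed by −0.042 (SE 0.129). Akt1 read 2549.3, 2833.3, 3590.9, 3025.7 and 3898.9 in the standard and 2858.7, 3151.7, 3242.5, 2962.0 and 3224.8 in the cafeteria arrays. The cafeteria values were the tighter ones and lay inside the standard range, and the difference was −0.027 (SE 0.116) with an interval of −0.28 to 0.23. Akt2, the isoform most tied to glucose handling, read 378.9, 481.1, 397.4, 530.2 and 495.6 in the standard and 437.8, 511.1, 468.0, 521.9 and 505.2 in the cafeteria arrays from its brightest probeset. Here too the cafeteria arrays lay within the standard range, at 0.10 (SE 0.105).

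Inpp5d encodes a phosphatase of blood cells that removes the PI3K lipid product. Its signals were 129.0, 88.2, 163.5, 179.6 and 152.4 in the standard arrays and 123.4, 122.5, 173.5, 95.0 and 112.0 in the cafeteria arrays. The ranges overlapped widely, with the lowest array in the standard group, and the difference was −0.16 (SE 0.185) with an interval of −0.56 to 0.25. Over the 10 arrays it ran with the immune index, the mean log2 signal of the 24 immune markers (Pearson r = 0.71, permutation p = 0.0245, 0.0490 adjusted over 2 relations examined). By rank the relation was Spearman rho = 0.62 (permutation p = 0.0613, adjusted 0.123), and r was 0.62 without standard replicate 5 and cafeteria replicate 3, the arrays farthest from the median index. Taken as deviations from the diet means, r was 0.69; within a diet, 5 arrays are too few to give r. With the immune index as a covariate, the Inpp5d difference was 0.052 (SE 0.166), and with the GAPDH ratio 0.065 (SE 0.259); the part of immune cells in its signal was not tested further. The arrays were unevenly spread along the index, with 5 between 7.65 and 7.83 and the others from 8.19 to 9.06. The 5 low arrays were cafeteria replicates 1, 2, 4 and 5 and standard replicate 2. Pik3cd, a catalytic subunit gene known from white blood cells that is outside the 36, had a difference of −1.12 (SE 0.535) and an interval of −2.30 to 0.055, with cafeteria replicates 4 and 5 at 22.0 and 24.0; the part of immune cells in it was not tested.

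**Figure D3:**
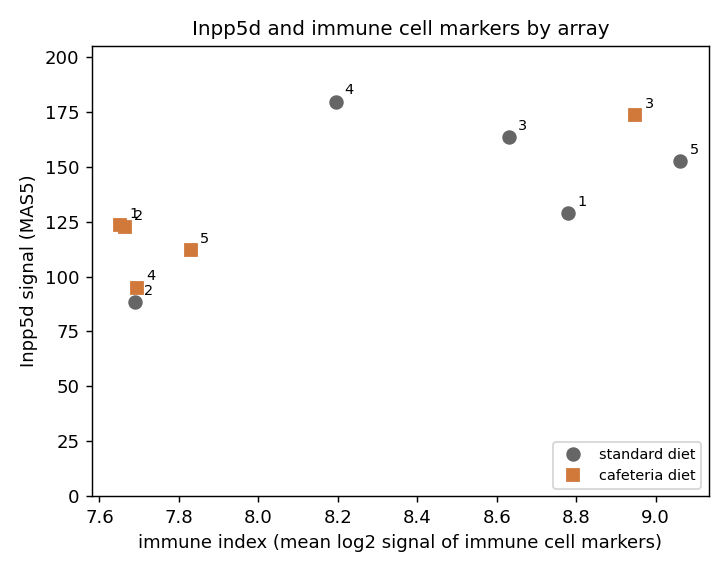
Inpp5d signal (MAS5, axis from 0) against the immune index, the mean log2 signal of 24 immune cell markers, for the 10 arrays, labelled by replicate and marked by diet. Arrays with a higher index tend to have a higher Inpp5d signal (Pearson r = 0.71). Most cafeteria arrays lie at the low end of the index, from 7.65 to 7.83, with replicate 3 at 8.95. Standard replicate 2 lies among them at 7.69, and the other standard arrays lie from 8.19 to 9.06.

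The mTOR arm was the most tightly measured, with 7 of 12 members higher and 5 lower and all 12 intervals between −0.5 and 0.5. Mtor, the kinase itself, was the sole member whose groups did not overlap, which was so for 2.44% of all probesets (0.988% with the cafeteria arrays higher, 1.45% lower). It read 336.3, 411.1, 437.6, 399.4 and 384.1 in the standard arrays and 473.6, 439.5, 438.1, 455.9 and 460.4 in the cafeteria arrays. The margin was thin: the highest standard array read 437.6 and the lowest cafeteria array 438.1, both replicate 3. The cafeteria mean was 453.5 ± 14.9 (SD, n = 5) beside 393.7 ± 37.6 (SD, n = 5) on standard chow, a 1.15-fold higher level and a log2 difference of 0.20 (SE 0.081), with an interval of 0.023 to 0.38. The exact two-sided permutation p was 0.00794, the smallest that 252 divisions of the arrays allow, and the limma adjusted p was 0.444. Over all other settings the difference stayed between 0.148 and 0.240.

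Mtor works in complexes, and the differences of its partner genes were closer to 0, though the gap to Mtor was not tested. Rptor, which presents substrates to the first complex, read 447.1, 422.1, 386.9, 376.9 and 505.6 in the standard and 443.6, 430.4, 428.9, 441.7 and 462.7 in the cafeteria arrays. All cafeteria arrays lay inside the standard range, and the difference was 0.051 (SE 0.088). Rictor, the scaffold of the second complex, and Mlst8, a subunit of both, differed by −0.078 (SE 0.094) and 0.05 (SE 0.140). For Mlst8 the standard arrays held both the lowest and the highest values, 357.9 and 650.0.

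Upstream of the kinase, Tsc2, the GTPase-activating subunit of the Tsc brake on Rheb, read 1165.6, 1282.8, 1304.4, 1470.3 and 1474.4 in the standard and 1400.2, 1638.6, 1352.4, 1378.2 and 1814.4 in the cafeteria arrays. Each cafeteria array exceeded the standard median, with cafeteria replicates 2 and 5 above all standard arrays, at a difference of 0.17 (SE 0.107) and an interval of −0.061 to 0.41. Its partner Tsc1, with the FoxO element in its promoter window, differed by −0.031 (SE 0.082), and Rheb by 0.086 (SE 0.080). The AMPK catalytic subunit genes Prkaa1 and Prkaa2 encode the energy sensor that restrains mTOR. Prkaa1 read 1753.3, 1778.5, 1708.7, 1809.4 and 2019.2 in the standard and 1693.2, 1738.0, 1553.2, 1598.4 and 1641.2 in the cafeteria arrays. Every cafeteria array was under the standard median and 4 of 5 were under every standard array, cafeteria replicate 2 being the exception, at −0.14, SE 0.073 (limma adjusted p = 0.520; exact two-sided permutation p = 0.0159). Prkaa2 differed by −0.14 (SE 0.134), with its lowest array in the standard group.

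Among mTOR outputs, Rps6kb1, the ribosomal S6 kinase gene, read 663.3, 598.6, 763.7, 706.0 and 600.4 in the standard and 711.3, 630.8, 699.9, 675.0 and 692.8 in the cafeteria arrays. These ranges nested, with a difference of 0.038 (SE 0.086). Eif4ebp1, whose product blocks the cap-binding factor until mTOR phosphorylates it, read 485.2, 645.3, 393.8, 528.2 and 509.8 in the standard and 520.1, 635.1, 424.1, 640.7 and 404.7 in the cafeteria arrays. The spread within each diet was far larger than the difference of 0.025 (SE 0.161), and its interval was −0.33 to 0.38. Eif4e, the cap-binding factor itself, differed by −0.037 (SE 0.083).

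In the FoxO arm 1 of 4 members was higher and 3 were lower, and Foxo3 had the lowest p of all 33. FoxO factors drive genes of stress resistance, cell cycle arrest and catabolism when insulin signalling is low. Foxo3 read 1729.4, 1418.4, 1604.1, 1386.4 and 1547.1 in the standard arrays and 1515.7, 1274.6, 1314.1, 1171.6 and 1036.5 in the cafeteria arrays. All 5 cafeteria arrays were below the standard median of 1547.1, and 4 were below every standard array, while cafeteria replicate 1 lay inside the standard range. The cafeteria mean was 1262.5 ± 177.7 (SD, n = 5) beside 1537.1 ± 140.0 (SD, n = 5) on standard chow, a 1.22-fold lower level with a log2 difference of −0.29 (SE 0.109) and an interval of −0.53 to −0.049. It did not pass over all probesets (limma adjusted p = 0.428; exact two-sided permutation p = 0.0317). Averaged with its 2 dim probesets, which were under the filter, the difference was −0.072 (SE 0.153).

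Foxo1, the FoxO gene best known in beta cells, read 1094.1, 920.4, 1464.5, 1049.6 and 909.1 in the standard and 1258.2, 1108.5, 795.1, 1164.7 and 831.6 in the cafeteria arrays. Standard replicate 3 was the highest and cafeteria replicate 3 the lowest array, and the rest were mixed. Its difference was −0.077 (SE 0.164) with an interval of −0.44 to 0.28. Foxo4 differed by 0.14 (SE 0.108), and Sesn1, a FoxO and p53 target whose product restrains mTOR, by −0.18 (SE 0.138). All 5 cafeteria arrays were above the standard median for Foxo4 and below it for Sesn1.

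The GAPDH ratio and the immune index (difference −0.51, exact two-sided permutation p = 0.159) had lower means in the cafeteria group. Adding the first as a covariate gave differences of −0.76 (SE 0.472) for Pik3r1, 0.17 (SE 0.120) for Mtor and −0.26 (SE 0.162) for Foxo3, and adding the second gave −0.69 (SE 0.370), 0.16 (SE 0.093) and −0.24 (SE 0.124). Each kept its sign with a larger SE, and none of the 3 kept an unadjusted limma p under 0.05: the p-values were 0.139, 0.192 and 0.137 with the first and 0.0910, 0.106 and 0.0841 with the second. The member under 0.05 was then Foxo4 with the first, at 0.38 (SE 0.120), and Ptpn1 with the second, at 0.30 (SE 0.102).

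The probesets of a gene did not always give the same difference. The members had 65 single-symbol probesets, of which 54 passed the filter, and 15 members had more than 1 that passed. All of a gene's probesets pointed the same way in 9 of these and in both directions in 6. Among the 21 that passed and were not the brightest of their gene, 6 had an unadjusted p under 0.05 (28.6%), 3 higher and 3 lower, beside 10.4% of all probesets (5.51% higher and 4.91% lower), with 0 past adjustment (lowest limma adjusted p = 0.398). Probesets of a gene are not replicates, as they share arrays and RNA.

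For Akt2 the second probeset read 151.6, 259.8, 198.1, 232.2 and 190.5 in the standard arrays and 274.9, 374.4, 367.1, 334.0 and 268.6 in the cafeteria arrays. These groups did not overlap, which was so for 2.44% of all probesets. The log2 difference was 0.62 (SE 0.146), against 0.10 from the brightest probeset and 0.33 (SE 0.203) from the third. The exact two-sided permutation p was 0.00794 and the limma adjusted p 0.398. All 3 were in the same direction, with sizes from 0.10 to 0.62.

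Pik3ca had 6 probesets past the filter, and 2 of them separated the groups, which was so for 2.44% of all probesets. One read 1431.4, 1356.4, 1562.4, 1537.1 and 1660.8 in the standard and 1262.8, 1245.0, 1279.5, 1298.6 and 1062.0 in the cafeteria arrays, a difference of −0.29 (SE 0.086). Another read 1212.0, 1063.5, 1130.5, 1090.3 and 1109.3 in the standard and 1012.6, 815.2, 951.1, 788.6 and 660.7 in the cafeteria arrays, a difference of −0.42 (SE 0.112). In both, every cafeteria array was below every standard array (exact two-sided permutation p = 0.00794; limma adjusted p = 0.398), and cafeteria replicate 5 was the lowest. The other 4, the brightest included, gave differences between −0.11 and 0.0012.

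Prkaa1 was the clearest conflict. Against −0.14 from its brightest probeset, a dimmer one read 102.8, 138.8, 117.3, 143.6 and 104.9 in the standard and 158.2, 164.7, 184.4, 200.6 and 113.9 in the cafeteria arrays. That is a difference of 0.39 (SE 0.145) in the opposite direction (exact two-sided permutation p = 0.0476), so no direction is given for this gene. Pik3r2 gave 0.40 (SE 0.143) from its dimmer probeset beside 0.019 from the brightest, and Pdpk1 −0.22 (SE 0.097) beside −0.042. Foxo3 had 2 further probesets, both under the filter, and Mtor and Pik3r1 had none.

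**Figure D4:**
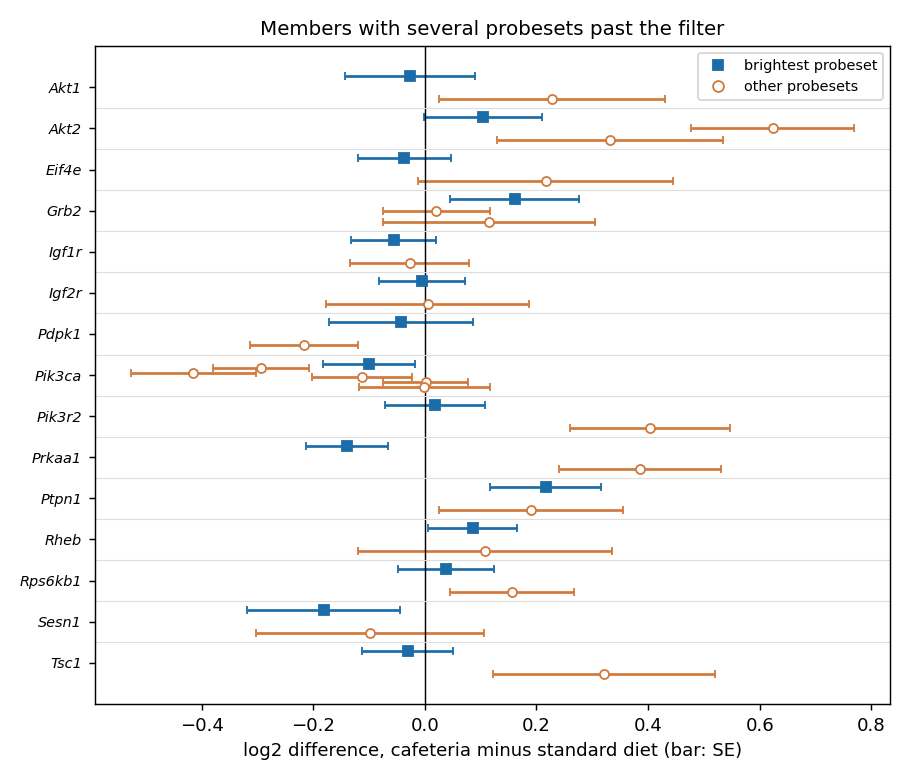
Log2 difference, cafeteria minus standard diet, with its SE for every probeset past the filter in the 15 members with more than 1; filled squares are the brightest probeset of a gene and open circles the others. The 2 Prkaa1 probesets lie on opposite sides of 0, and 1 of the Akt2 probesets stands at 0.62.

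The rest of the pathway was read from 4 further lists, of which 114 genes had a probeset and 104 were tested. Across these 104 genes, 37 were higher (35.6%) and 67 lower, beside 51.4% higher of all probesets, with a median log2 difference of −0.041, and 0 passed the adjusted threshold. At an unadjusted p under 0.05 there were 3 higher and 3 lower, or 5.77%, under the background of 10.4%. Among receptor brakes and adaptors 3 of 15 were higher and 12 lower, beside 51.4% higher of all probesets. An unadjusted p under 0.05 was found for 1 of the 15 (6.67%, beside 10.4%). This was Insrr, an insulin receptor relative that senses alkaline pH, at 0.58 (SE 0.174) from the brightest of its 3 probesets. Over all other settings, averaging of its probesets among them, the difference stayed between 0.27 and 0.66. Insrr read 336.7, 467.2, 276.7, 464.9 and 346.7 in the standard and 454.1, 748.8, 481.1, 641.9 and 526.2 in the cafeteria arrays. All cafeteria arrays lay above the standard median, and the groups overlapped (limma adjusted p = 0.398). Cbl, a ubiquitin ligase for receptors, differed by −0.14 (SE 0.070) with groups that did not overlap, as for 2.44% of all probesets. Socs2, a cytokine feedback inhibitor, differed by −0.39 (SE 0.216), and Grb10, which inhibits the insulin receptor, by −0.27 (SE 0.173). Socs3, another feedback inhibitor, was under the filter, at 61.5 ± 14.8 (SD, n = 5) beside 94.1 ± 34.3 (SD, n = 5) on standard chow.

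Of 20 other PI3K and Akt genes 6 were higher (30.0%, beside 51.4% of all probesets) and 14 lower, and 2 (10.0%, beside 10.4%) had an unadjusted p under 0.05, both lower. Pik3ip1, an inhibitor of the PI3K catalytic subunit, read 252.3, 252.5, 348.9, 231.7 and 311.8 in the standard and 226.1, 240.4, 215.0, 210.3 and 174.2 in the cafeteria arrays. All but 1 of the cafeteria arrays lay below every standard array, at a difference of −0.36 (SE 0.124). Gsk3b, a kinase that Akt inhibits, differed by −0.22 (SE 0.095), and Trib3, which binds Akt, by −0.10 (SE 0.193). Among 42 other mTOR and AMPK genes 20 were higher (47.6%) and 22 lower, with 3 (7.14%) at an unadjusted p under 0.05: Eif4g1, the scaffold of the cap-binding complex (0.36, SE 0.143), the AMPK subunit gene Prkag1 (0.20, SE 0.082) and Seh1l, of the amino acid sensing branch (−0.23, SE 0.092). The mTOR inhibitor genes Deptor and Ddit4 differed by −0.18 (SE 0.098) and −0.20 (SE 0.111), with all 5 cafeteria arrays below the standard median for each.

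FoxO partners and targets bear on the FoxO arm, and 0 of 27 had an unadjusted p under 0.05, beside 10.4% of all probesets, with 8 higher (29.6%, beside 51.4%) and 19 lower and a median of −0.059. The members of lowest p were Cited2, a co-regulator (−0.40, SE 0.184), the coactivator Crebbp (−0.18, SE 0.085) and Tnfsf10, a death ligand (−0.29, SE 0.134), and Txnip, which binds thioredoxin, differed by −0.12 (SE 0.118). These counts describe the lists. No list was tested as a set.

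Seen array by array, the extreme values were spread over all 10 samples. Standard replicate 1 held the highest or lowest value for 11 of 33 members (33.3%, against 22.0% of all probesets), standard replicate 5 for 10 and cafeteria replicate 5 for 10 (30.3%, against 35.3%). Cafeteria replicates 1, 2 and 4 held 3, 2 and 3. Cafeteria replicate 5, the array with the most extremes over all probesets, was highest for Irs2, Shc1, Tsc2, Rheb and Foxo4 and lowest for Gab1, Pdpk1, Rictor, Sesn1 and Foxo3.

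**Figure D5:**
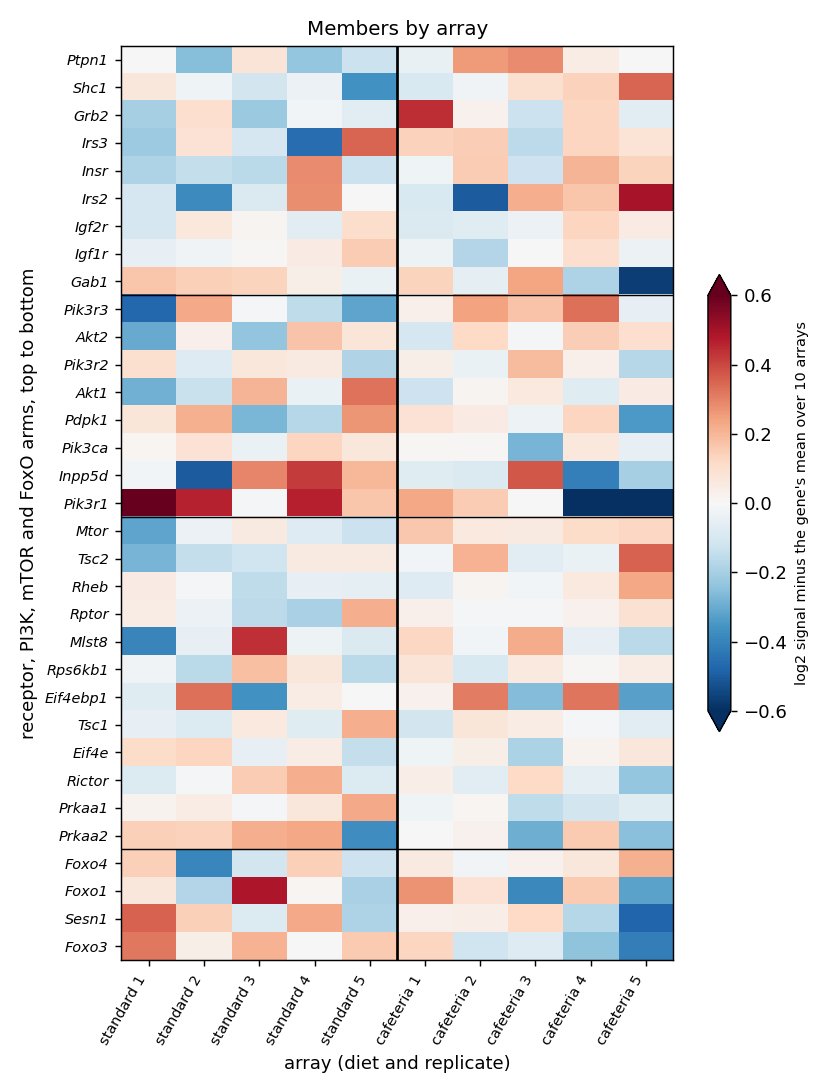
Log2 signal of the 33 members on each array after subtracting the gene's mean over the 10 arrays (red higher, blue lower; the scale stops at 0.6 on each side), with the arms from receptor at the top to FoxO at the bottom and the diets split by the vertical line. The colours do not sort by diet for most genes, and the deepest blue is that of Pik3r1 in cafeteria replicates 4 and 5.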

How the data were processed

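Signals came from the Affymetrix GeneChip Rat Genome 230 2.0, a 1-colour array, for 10 samples of total islet RNA. The deposited values are linear intensity values from MAS5, per the submitters' processing notes, with no version given; the authors had scaled each array, as its mean after trimming 2% at each end was 500.1 to 500.2. No detection calls were used here. Of 31099 probesets, 57 were controls, 20826 had 1 gene symbol, 436 several and 9780 none. Values were transformed as log2(value + 14.15), the pseudocount being the 10th percentile of all values, and probesets above the 40th percentile of mean log2 signal went into limma 3.58.1 under R 4.3.3 (linear model with moderated variance; 8 residual degrees of freedom), adjusted by Benjamini-Hochberg over 18625 probesets at 0.05. For single genes, exact permutation p-values (two-sided) were computed as well. The number of arrays limits the precision. The fit was tested on simulated data.

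The 36 genes, the other lists, the markers and the tests were chosen with earlier results of these data known. Genes described array by array were the main nodes of each arm and members with an unadjusted p under 0.05; Pik3r3, Ptpn1 and Prkaa1, and the probesets described singly, were added after their values were seen. Of the other pathway genes, those set by name (Trib3, Ddit4, Deptor, Grb10, Socs3 and Txnip) and the 3 of lowest p in each list are named. Replicate numbers were not taken to pair the arrays, since the labels name independent samples. Alternatives covered the pseudocount, the filter, scaling (quantile or median centring), other variance models, array weights, a replicate block, covariates, other choices of probeset and leaving out each array. A planned search of protein sequences was not made.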

Additional observations from a re-analysis of the deposited data

Results flagged for a closer look

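In 6 of 100 sets of 5 arrays (50 named genes in each diet), a single array stood apart under Dixon's 95% limit; chance alone marks about 1 set in 20, or 5.0 here. Among the members, Insr was highest in standard replicate 4 at 7.82 on the log2 scale (signal 211.7; others 148.6 to 155.2). Irs3 was lowest in cafeteria replicate 3 at 7.29 on the log2 scale (signal 141.8; others 169.9 to 178.7). Prkaa2 was lowest in standard replicate 5 at 9.16 on the log2 scale (signal 557.6; others 800.2 to 853.6). Outside the members, Ddit4 was lowest in standard replicate 3 at 9.29 on the log2 scale (signal 614.0; others 748.1 to 798.2), Seh1l highest in standard replicate 2 at 11.41 on the log2 scale (signal 2702.8; others 2251.1 to 2344.0), and Cited2 lowest in cafeteria replicate 4 at 9.33 on the log2 scale (signal 629.7; others 895.9 to 1002.8).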

How the results depend on the processing

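Results were recomputed under 23 settings, of which 10 each dropped an array. No member and no other pathway gene passed the adjusted threshold under any of them (lowest adjusted p = 0.274, over the 50 named genes), which says little where none passed to begin with. Of 1135 values, 1090 kept their direction and 45, of 16 genes, turned sign, 44 of these with a value within 1 SE of 0. The exception was Prkaa1, at 0.19 when probesets of a gene were averaged, whose probesets disagree. The count of members with an unadjusted p under 0.05, which was 3, became 5 with array weights and 1 with the GAPDH ratio (Foxo4) or the immune index (Ptpn1) as a covariate, none of them Pik3r1, Mtor or Foxo3. It ran from 0 to 5 when an array was left out: 0 without cafeteria replicate 4, 1 (Ptpn1) without standard replicate 1 and 5 without standard replicate 3. That of other pathway genes, which was 6, became 10 with median centring and 11 with trended and robust variance, and ran from 3 (without cafeteria replicate 5) to 13 (without cafeteria replicate 1). With the replicate number as a block, the counts were 3 and 9, the 3 being Pik3r1, Pik3r3 and Foxo3, with Mtor at an unadjusted limma p of 0.0643; same-numbered arrays deviated together with a correlation over 0.1 in 3 of 5 pairs, and 5 of 10 arrays correlated best with their own number. The members' median turned sign with median centring, to −0.019 (15 higher, 18 lower), while that of all probesets went to −0.032. With the GAPDH ratio it was −0.0052, against −0.0068 over all probesets. Without standard replicate 1 it was −0.014, against 0.0047, and without cafeteria replicate 4 it was −0.012, against 0.0074. Averaging the probesets of each gene gave a members' median of 0.097 (23 higher, 10 lower), against 0.0090 over all values then tested. Pik3r1 was under the filter at the 60th percentile and has no plain probeset, so neither setting gave it a value. No detection call or background value was used, so what signal over background limits was not examined.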
